A study of Homo sapiens with 12 samples.

Results

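The 36 genes described here encode glucose and lactate transporters, the enzymes of glycolysis, regulators of the flux through it, products known to rise in low oxygen, and HIF1A with its hydroxylases. They were chosen by name, not by measured values. All 36 have an entry in the deposited table of raw read counts, of 44053 genes once the entries of duplicate loci are added to their gene. The cells were TK6, an established human line of B lymphoblasts that is widely used in mutation assays, carrying the label "IVGT" and obtained from the JCRB Cell Bank. They were exposed for 24 h to 3-methylcholanthrene, a polycyclic aromatic hydrocarbon and a ligand of the aryl hydrocarbon receptor (AHR). There were 3 libraries of polyadenylated RNA at each of 4 concentrations, called control at 0 µg/mL, low at 0.0004 µg/mL, medium at 0.04 µg/mL and high at 4 µg/mL. The labels give neither the solvent nor whether libraries of 1 group stem from different cultures, and every p-value rests on the spread between libraries, which may be technical.

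Glycolysis splits glucose into pyruvate and yields ATP without oxygen. Proliferating lymphoblasts turn much of that pyruvate into lactate. In low oxygen the prolyl hydroxylases of the EGLN family no longer mark HIF1A protein for degradation through VHL, and HIF1A then binds with ARNT to hypoxia response elements and raises transcription of most genes of the pathway. ARNT is also the partner of AHR, which makes the pathway a natural place to look in cells given an AHR ligand. HIF1A is controlled mainly at the level of its protein, which was not measured here.

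The hypoxia response element has the core ACGTG or GCGTG, and the AHR-ARNT site is usually written TNGCGTG. Windows of 300 bases, from 250 before to 50 after each transcription start (RefSeq, GRCh38.p14), were available for 31 of the 36 genes, in 59 windows. No entry was found for SLC2A3, SLC16A1, BNIP3L, VEGFA and NDRG1. The sequences below are the 250 bases before the start of 5 genes picked for their values. PGK1 and HK2 fell and SLC2A1 rose with the mitochondrial 16S rRNA share of the libraries in each of the 4 groups, LDHA varied most, and EGLN3 had no counts. The order by 16S share was chosen after the values were seen and has no test, and its relation to the promoter letters was not tested. PFKM, an enzyme that rose as SLC2A1 did, has 7 windows and is not printed. HK2 and LDHA each have a second window, and the one at the outermost start is shown. Each is written 5′ to 3′ on the strand of its gene in lower case, and capitals mark ACGTG or GCGTG on either strand, so that CACGT and CACGC are in capitals as well. The windows lie at chrX:78103998-78104247 on the plus strand for PGK1, chr2:74833877-74834126 on the plus strand for HK2, chr11:18394313-18394562 on the plus strand for LDHA, chr1:42958869-42959118 on the minus strand for SLC2A1 and chr14:33951075-33951324 on the minus strand for EGLN3.
PGK1: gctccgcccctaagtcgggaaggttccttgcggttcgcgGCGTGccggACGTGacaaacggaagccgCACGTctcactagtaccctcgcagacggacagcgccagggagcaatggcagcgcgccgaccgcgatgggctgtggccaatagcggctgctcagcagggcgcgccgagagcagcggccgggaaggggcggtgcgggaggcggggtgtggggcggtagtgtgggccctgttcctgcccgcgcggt
HK2: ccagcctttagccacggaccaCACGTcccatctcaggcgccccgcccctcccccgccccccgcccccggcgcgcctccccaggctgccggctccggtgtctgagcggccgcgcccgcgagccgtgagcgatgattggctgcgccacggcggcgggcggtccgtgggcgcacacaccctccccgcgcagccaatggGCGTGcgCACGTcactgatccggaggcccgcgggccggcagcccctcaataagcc
LDHA: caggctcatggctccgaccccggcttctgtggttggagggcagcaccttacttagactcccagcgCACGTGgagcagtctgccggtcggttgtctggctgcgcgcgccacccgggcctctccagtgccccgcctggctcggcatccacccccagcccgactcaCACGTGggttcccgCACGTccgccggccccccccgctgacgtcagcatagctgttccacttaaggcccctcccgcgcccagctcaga
SLC2A1: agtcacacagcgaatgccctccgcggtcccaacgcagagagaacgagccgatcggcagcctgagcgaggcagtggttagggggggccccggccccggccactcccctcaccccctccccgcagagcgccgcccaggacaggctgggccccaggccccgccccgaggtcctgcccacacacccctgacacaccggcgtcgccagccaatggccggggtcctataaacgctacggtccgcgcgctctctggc
EGLN3: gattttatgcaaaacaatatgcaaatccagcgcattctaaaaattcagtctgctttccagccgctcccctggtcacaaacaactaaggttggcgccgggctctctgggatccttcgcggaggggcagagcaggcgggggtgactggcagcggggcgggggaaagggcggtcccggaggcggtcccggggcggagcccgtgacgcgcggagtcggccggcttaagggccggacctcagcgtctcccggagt
Counted on both strands, the printed LDHA window holds 5 ACGTG matches. It has 2 E-boxes CACGTG, and each of them counts as 2 matches because it reads the same on both strands. The printed windows of PGK1 and HK2 hold 2 ACGTG and 1 GCGTG each, with no E-box. The second windows differ from these: the same stretch of HK2 holds 4 ACGTG matches, from 2 E-boxes, and 2 GCGTG, and that of LDHA holds 1 GCGTG. The genes therefore have no fixed order by number of matches. The printed stretch of SLC2A1 holds 0 cores, but 1 GCGTG lies in the 50 bases after its start, and EGLN3 holds 0 cores in its whole window.

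Over whole windows on both strands, 40 of the 59 (67.8%) held ACGTG or GCGTG, against 48.4% of all 35116 windows. The share with ACGTG was 39.0% against 21.4% of all windows, and that with GCGTG was 40.7% against 36.5%. Counted by gene, 29 of 31 had a core in at least 1 window, against 52.4% of 27305 genes. The 31 genes had more windows per gene (59 in all) than all genes (35116 for 27305), which makes this count easier to meet. The sequence TNGCGTG, which contains GCGTG, was present in 1 of the 59 windows, that of ENO1, against 5.51% of all. CACGTG, which contains ACGTG, was present in 13.6% against 7.26%. EGLN3 and PGAM1 were the genes with a window and no core. A match describes the letters of a window and does not show that a factor binds there.

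Library totals ran from 9163368 to 19841387 counts, and values below are counts scaled to a common library total (CPM) unless stated as CPM per kb of exon. All 7 B cell markers reported (CD79A, CD79B, MS4A1, PAX5, CD22, CD74 and HLA-DRA) had at least 3 counts in every library, with a summed level of 2484 to 2942 CPM in the control libraries. The sum was 2148 to 2858 CPM in low, 2291 to 2659.5 CPM in medium, and 2032 to 3048 CPM for high. All 4 erythroid markers were at 0 counts, and the summed levels of 6 T and NK cell markers (CD3G and CD247 at 0), 5 myeloid markers (FCGR3A at 0) and 5 epithelial and stromal markers (EPCAM, KRT19 and COL1A2 at 0) stayed at or below 8.42, 6.51 and 7.34 CPM in each library. The libraries of a group differed widely in mitochondrial 16S rRNA. Its share of the counts was 3.84%, 2.18% and 1.43% in control replicates 1 to 3, 3.39%, 1.46% and 7.99% in low, 4.795%, 2.73% and 3.13% in medium, and 5.52%, 1.45% and 7.96% in high. RN7SL1, RN7SK and RMRP, which have no poly(A) tail, summed to 141 CPM in low replicate 3 and 110 CPM in high replicate 3, against 6.20 to 98.7 CPM in the other libraries. These shares move with many of the values below, and their part in those values was not tested except where a fit is given. In bulk RNA, fewer cells that express a gene and less of its RNA per cell cannot be told apart.

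Of the 36 genes, 29 had at least 3 counts in every library and were tested. Their levels ran from a median of 5391 down to 0.629 CPM per kb, as the plot of levels by gene shows. GAPDH, which oxidises glyceraldehyde 3-phosphate, led over the 12 libraries and alone took 0.782% to 1.05% of all counts. It was followed by ENO1 at 971, TPI1 at 504, LDHB at 481, PKM at 328, PGAM1 at 236 and PGK1 at 119 CPM per kb. At the other end, ADM, CA9 and EGLN3 had 0 counts in all 12 libraries, and the level that 3 counts would give was 0.151 to 0.327 CPM. HK1, SLC16A3, NDRG1 and ANKRD37 had 34, 17, 10 and 15 counts in all. A count of 0 here does not always mean an absent transcript: FTH1 (ferritin heavy chain) and MIF, abundant in most cells, also had 0. FTH1 differs in that 100% of its exon bases are shared with genes on the opposite strand, against 0% for ADM, CA9 and EGLN3. For MIF this overlap was not computed, so the 0 counts of ADM, CA9 and EGLN3 are not taken as evidence of absence.

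**Figure D1:**
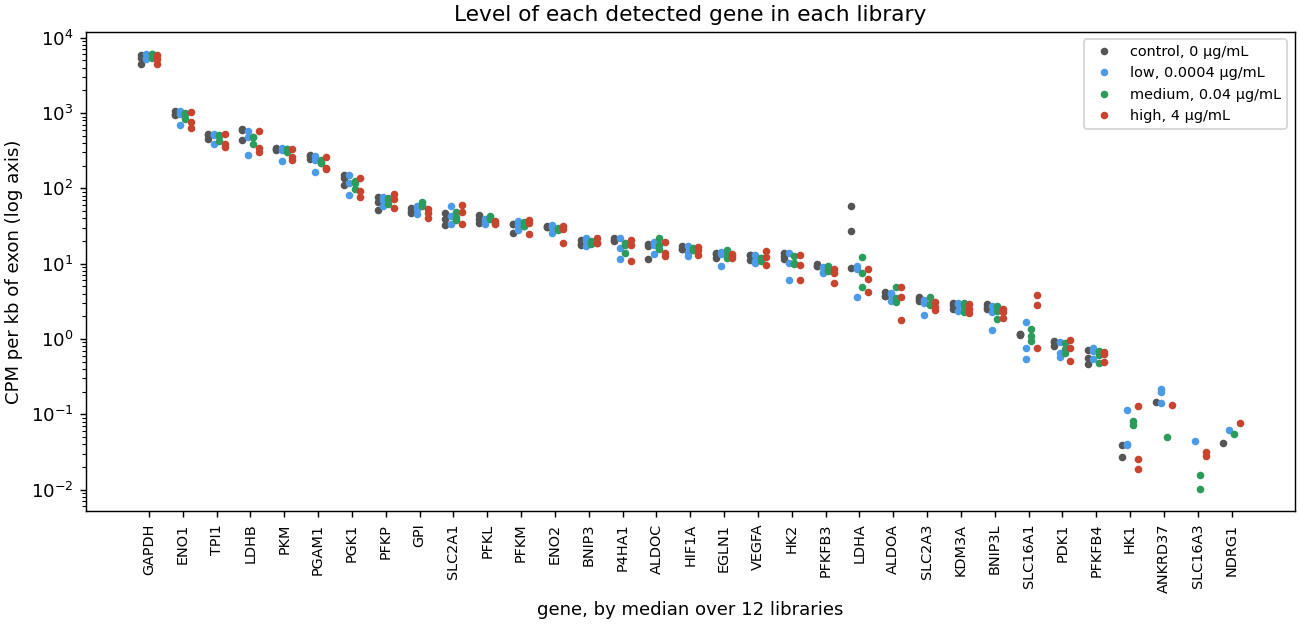
Level of each detected gene in every library, in CPM per kb of exon on a log axis, with genes ordered by their median over the 12 libraries and 1 point per library coloured by concentration. Libraries at 0 counts are not drawn, and ADM, CA9 and EGLN3 are left out; GAPDH stands highest, and LDHA and SLC16A1 show the widest spread of the 29 tested genes.

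No gene of the 36 passed edgeR's quasi-likelihood test of a change with 3-methylcholanthrene. At an adjusted p below 0.05, 0 of the 29 tested genes were called in low, medium or high, in a trend over the rank of concentration, or in a test for any difference between groups, and 0 of all 11866 genes tested were (0%). DESeq2 called 4, 2, 3, 1 and 9 genes in these 5 comparisons and limma voom 0, but none of the 36 genes was among those called. The smallest adjusted p among the 29 was 0.913 in low, 0.999 in medium, 0.813 in high and 0.857 for the trend. At an unadjusted p below 0.05 there were 1 in low (2.72% of all genes tested), 2 in medium (1.91%), 3 in high (3.08%), 2 for the trend (2.85%) and 2 in the test for any difference (1.58%).

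The estimated differences leaned downward in the treated groups by little. In high, 19 of the 29 genes lay below control and 10 above, with a median log2 difference of -0.09, and 49.2% of all genes tested lay below with a median of 0.00. In low the split was 20 below and 9 above (median -0.08), with 48.4% of all genes below. In medium it was 17 below and 12 above (median -0.02), with 49.5% of all genes below. The 3 comparisons share their control libraries. Without a composition factor the split in high became 23 below and 6 above, while the median of all genes moved from 0.00 to -0.05. When low replicate 3 and high replicate 3, the libraries with the most 16S rRNA, were left out, the median was -0.01 in low and -0.06 in high, and 12 of the 29 estimates in low and 7 in high turned sign. With the 16S share as a covariate the median was -0.01 in low and 0.02 in medium, and -0.05 for high.

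**Figure D2:**
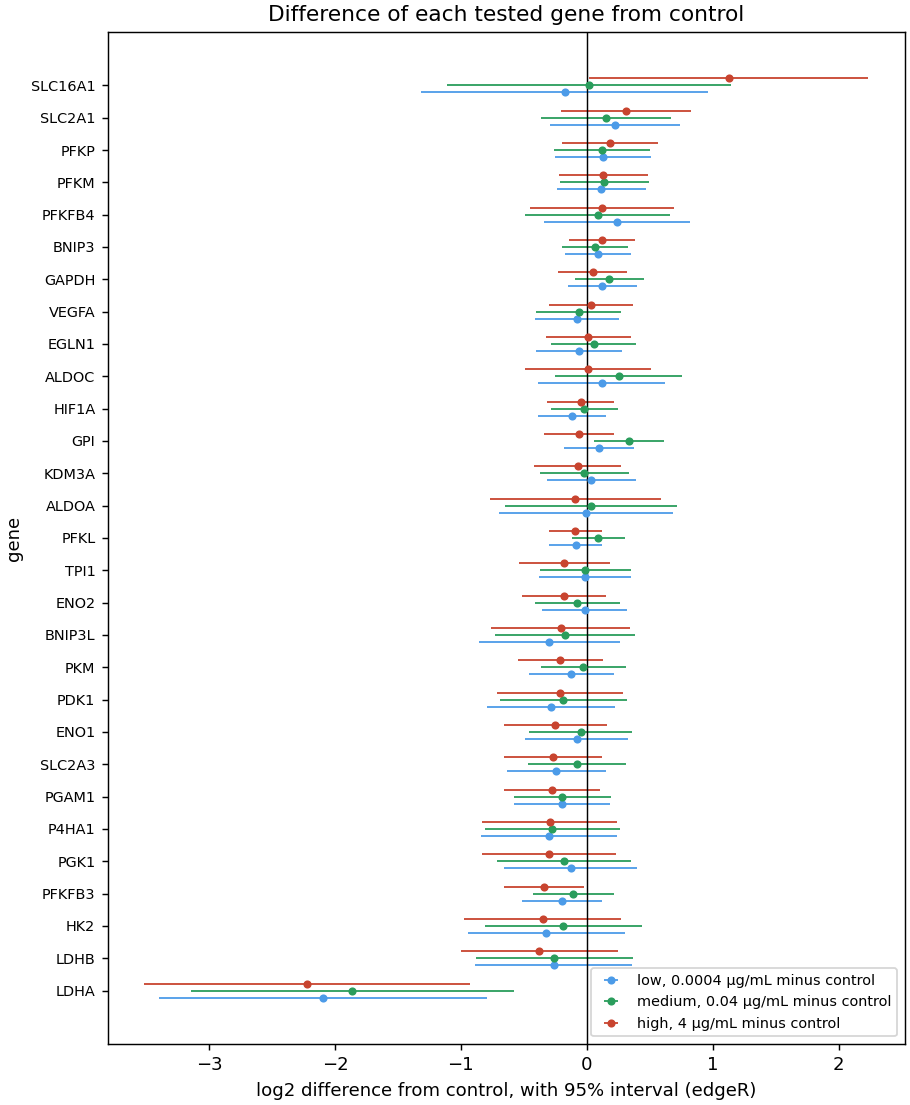
Log2 difference of each of the 29 tested genes from control for low, medium and high, as points with 95% intervals from edgeR; the vertical line marks 0. Most intervals cross 0, and those of LDHA and SLC16A1 are the widest, with LDHA at -2.22 and SLC16A1 at 1.13 in high.

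Among the transporters, SLC2A1 (GLUT1), the main glucose importer of proliferating cells, was far more abundant than SLC2A3 (GLUT3), at a median of 42.4 against 3.06 CPM per kb. SLC2A1 stood at 159, 135 and 111 CPM in the 3 control libraries, 145, 115 and 197 in low, 167, 127 and 142 in medium, and 164, 114 and 203 in high. The groups overlapped, and low replicate 3 and high replicate 3 were the highest of the 12. The log2 difference in high was 0.31 ± 0.24 (SE, adjusted p = 0.813 by edgeR, 3 libraries a group). SLC2A3 stood at 13.7, 12.2 and 13.1 CPM in control, 11.6, 12.7 and 7.96 in low, 11.02, 14.02 and 10.97 in medium, and 11.8, 10.2 and 9.29 in high. All 3 high libraries lay below all 3 controls, with a log2 difference of -0.27 ± 0.18 (adjusted p = 0.813, edgeR), and in low the difference was -0.24 ± 0.18 (adjusted p = 0.913, edgeR) with overlapping groups. The difference in low was -0.08 without low replicate 3 and -0.37 without low replicate 2.

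SLC16A1 (MCT1) carries lactate and pyruvate across the membrane, and it gave the largest positive estimate of the 29 genes. Its level was 5.49, 5.38 and 5.42 CPM in control, 3.54, 7.98 and 2.58 in low, 4.47, 5.23 and 6.31 in medium, and 17.9, 3.53 and 13.2 in high. High replicates 1 and 3 stood above all other libraries while high replicate 2 lay below every control, so the groups overlapped. The log2 difference in high was 1.13 ± 0.51 (adjusted p = 0.813, edgeR), 0.68 without high replicate 1 and 1.56 without high replicate 2. The slope over the 4 concentrations was 0.37 ± 0.16 per step (adjusted p = 0.857, edgeR) and 0.20 without high replicate 1. SLC16A3 (MCT4), the lactate exporter of hypoxic cells, had 0 to 6 counts a library, so that its level and any change were not measurable at this depth.

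Nearly all SLC16A1 and LDHA reads were counted on the entry of a duplicate locus, not on the gene's own chromosome entry. The count table holds these genes a second time, and the duplicate entries held 98.8% of the SLC16A1 and 98.7% of the LDHA counts. GPI had 6.64% of its counts on 2 such entries. A read that fits both copies equally well belongs to neither in particular, and the levels of these 3 genes are therefore uncertain, above all those of SLC16A1 and LDHA.

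**Figure D3:**
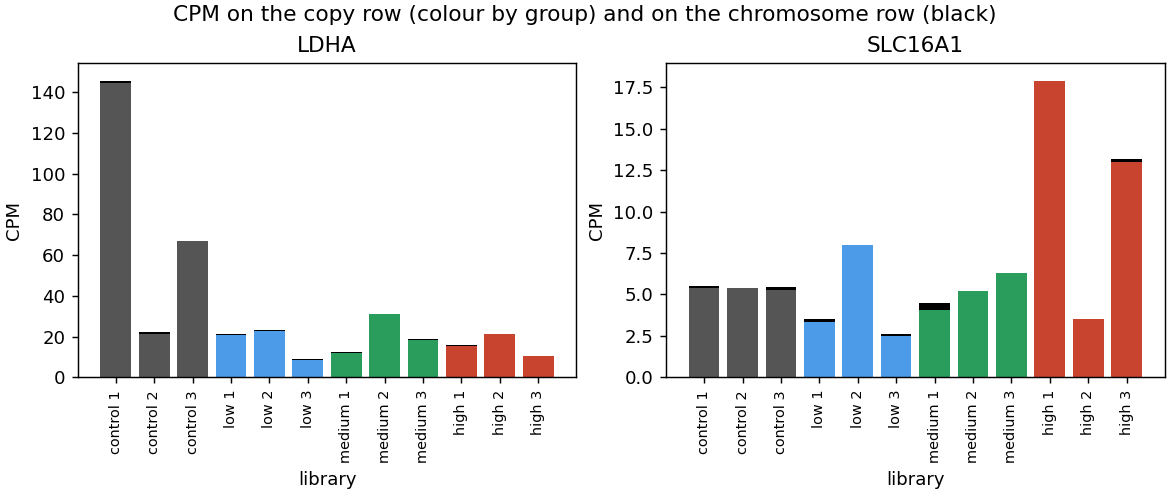
CPM of LDHA and SLC16A1 in each library, as stacked bars with the entry of the duplicate locus in the colour of the group and the chromosome's own entry in black. LDHA reaches 146 CPM in control replicate 1 and 67.1 in control replicate 3, against 22.2 in control replicate 2, and SLC16A1 stands at 17.9 and 13.2 CPM in high replicates 1 and 3.

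LDHA, which reduces pyruvate to lactate, had the largest estimated difference and the largest spread. It stood at 146, 22.2 and 67.1 CPM in control, 21.0, 23.3 and 9.04 in low, 12.4, 31.1 and 18.8 in medium, and 15.7, 21.4 and 10.6 in high. Control replicates 1 and 3 were the highest of the 12 libraries, while control replicate 2 lay among the treated ones. The groups overlapped in low and medium, and in high all 3 libraries lay just below all controls. The log2 difference was -2.10 ± 0.59 in low (adjusted p = 0.913), -1.86 ± 0.58 in medium (adjusted p = 0.999) and -2.22 ± 0.59 in high (adjusted p = 0.813, edgeR, 3 libraries a group). The slope was -0.69 ± 0.19 per step of concentration (adjusted p = 0.857, edgeR). Without control replicate 1 the slope was -0.40 and the difference -1.33 in low, -1.10 in medium, and -1.45 for high. In the test for any difference between groups with no filter on low counts, LDHA was the 1 gene of the 36 called (adjusted p = 0.0214, edgeR). That fit also called genes outside the 36, whose number is given with the alternatives at the end. Without the filter LDHA was not called against control in low, medium or high (adjusted p = 0.129, 0.243 and 0.132, edgeR).

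LDHB, the other lactate dehydrogenase subunit, has no duplicate entry. Its level was 808, 1118 and 1096 CPM in control, 888, 1071 and 504 in low, 707, 889 and 870.2 in medium, and 636, 1049 and 549.6 in high. Low replicate 3 and high replicate 3 were the lowest of the 12. The difference in high was -0.38 ± 0.28 (adjusted p = 0.813, edgeR). LDHA made up 5.78% ± 5.27 (SD, n = 3) of LDHA plus LDHB per exon length in control. The share was 1.52% ± 0.21 in low and 1.77% ± 0.64 in medium, and for high it was 1.54% ± 0.20. These shares are uncertain, since 98.7% of the LDHA counts lay on its duplicate entry. They overlapped between groups (exact permutation p = 0.3 in each comparison with control, 2-sided), and 3 against 3 libraries cannot give less than 0.1.

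Hexokinase, which traps glucose in the cell as glucose 6-phosphate, was represented by HK2. HK2 stood at 135, 147 and 159.9 CPM in control, 117, 158 and 70.8 in low, 113, 147 and 119 in medium, and 111, 151 and 70.3 in high. The lowest libraries were again low replicate 3 and high replicate 3, and the difference in high was -0.35 ± 0.28 (adjusted p = 0.813, edgeR). HK1, the form found in most tissues, had 2, 0 and 2 counts in control, 6, 2 and 2 in low, 4, 0 and 4 in medium, and 2, 2 and 8 in high. Its exons share 0% of their bases with other entries and it has no duplicate entry. Given the 0 counts of MIF and FTH1, of which FTH1 shares all its exon bases with other genes, the level of HK1 is not taken as evidence of absence.

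Of the middle enzymes, GPI, which turns glucose 6-phosphate into fructose 6-phosphate, was the 1 gene whose libraries lay wholly above control in any group. It stood at 218, 236 and 252 CPM in control, 274, 248 and 215 in low, 275, 283 and 309.7 in medium, and 219.7, 246 and 185 in high. The difference was 0.33 ± 0.13 in medium (adjusted p = 0.999, edgeR) and -0.06 ± 0.13 in high (adjusted p = 0.881), so the estimates did not follow the concentration. Every library lay above every control for 3.3% of all genes in medium, 2.33% in low and 1.8% in high, and for 1, 0 and 0 of the 29 tested genes. GAPDH stood at 10351, 9286 and 7816 CPM in control, 10472, 9167 and 9378 in low, 10536, 9254 and 10413 in medium, and 9097, 7847 and 10241 in high. The groups overlapped, and the GAPDH difference in medium was 0.18 ± 0.12 (adjusted p = 0.999, edgeR); without control replicate 3 it was 0.09 in medium, and in high it was 0.05 ± 0.12 with the composition factors and below 0 without them.

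The phosphofructokinase subunits PFKP, PFKL and PFKM, which form the committed step of glycolysis, were all expressed, at medians of 69.8, 38.0 and 32.9 CPM per kb. PFKP made up 47.8% ± 1.61 (SD, n = 3) of the 3 in control and 50.6% ± 3.56 in high (exact permutation p = 0.3, 2-sided). Their CPM ranged from 204 to 330.0 for PFKP, 136 to 181 for PFKL and 133 to 202 for PFKM over the 12 libraries. The aldolase fructose-bisphosphate A, ALDOA, was counted at a median of only 3.70 CPM per kb against 17.5 for ALDOC, but 65.1% of the exon bases of ALDOA are shared with the overlapping gene LOC112694756 on the same strand, so its level is uncertain. TPI1, the triose isomerase, ranged from 659 to 999 CPM, with 0.75% of its exon bases shared with SPSB2.

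In the lower, ATP-yielding steps the pattern of HK2 and LDHB recurred. PGK1, the first ATP-forming enzyme, stood at 533, 652 and 718 CPM in control, 574, 732 and 397 in low, 471, 599.9 and 568 in medium, and 450.3, 665 and 373 in high. ENO1, the main enolase, stood at 3022, 3324 and 3085 CPM in control, 3111, 3418 and 2165 in low, 2653, 3056 and 3159.5 in medium, and 2387, 3229 and 1998 in high. PKM, the pyruvate kinase, stood at 1747, 1868 and 1790.4 CPM in control, 1762, 1829.7 and 1253 in low, 1613, 1767 and 1784 in medium, and 1418, 1807 and 1267 in high. All 3 enzymes had their lowest values in low replicate 3 and high replicate 3, and each group overlapped with control. The differences in high were -0.30 ± 0.24 for PGK1, -0.25 ± 0.19 for ENO1 and -0.21 ± 0.15 for PKM (adjusted p = 0.813 each, edgeR). PGAM1, the phosphoglycerate mutase, stood at 476, 524 and 514 CPM in control, 453, 518 and 315 in low, 421, 450.3 and 419.5 in medium, and 361, 494 and 342 in high. All 3 medium libraries of PGAM1 lay below all controls, and the difference in high was -0.28 ± 0.17 (adjusted p = 0.813, edgeR), -0.48 without high replicate 2 and -0.18 without high replicate 3. ENO2, the neuronal form of enolase, ranged from 43.7 to 75.9 CPM, and ENO1 made up 97.0% ± 0.10 (SD, n = 3) of the 2 per exon length in control. This share is uncertain, since 42.2% of the exon bases of ENO2 are shared with LOC124902868 on the opposite strand. LOC124902868 held 110 counts against 9330 for ENO2.

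PFKFB3 and PFKFB4 make and break down fructose 2,6-bisphosphate, the activator of phosphofructokinase, and PDK1 inhibits pyruvate dehydrogenase, which turns pyruvate into acetyl-CoA in mitochondria. PFKFB3 stood at 51.4, 51.8 and 53.7 CPM in control, 41.1, 50.2 and 42.0 in low, 43.9, 51.0 and 47.2 in medium, and 40.9, 47.3 and 30.7 in high. It was the 1 gene of the 36 with every library below every control in all 3 treated groups, which share those controls. The share of all genes that lay below in all 3 groups was not computed, so this count has no background. All libraries lay below all controls for 5.01% of all genes in low, 8.35% in medium and 8.24% in high, and among the 29 tested genes for 1, 4 and 3. In medium the others were PGAM1, ENO2 and P4HA1, and in high LDHA and SLC2A3. The log2 difference of PFKFB3 was -0.20 ± 0.15 in low (adjusted p = 0.913), -0.11 ± 0.15 in medium (adjusted p = 0.999) and -0.34 ± 0.15 in high (adjusted p = 0.813, edgeR). Its slope was -0.09 ± 0.05 per step (adjusted p = 0.857, edgeR), and without high replicate 3 the slope was -0.05 and the difference in high -0.19. PDK1 stood at 16.6, 18.7 and 19.1 CPM in control, 13.2, 18.7 and 11.7 in low, 15.1, 18.2 and 13.4 in medium, and 15.2, 19.4 and 10.4 in high, with overlapping groups. PFKFB4 ranged from 2.74 to 4.41 CPM.

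The genes known best as hypoxia targets fell into those expressed at modest levels and those at or near 0. VEGFA, the vascular growth factor, stood at 49.0, 50.04 and 42.0 CPM in control, 41.3, 38.3 and 49.9 in low, 45.0, 45.5 and 40.6 in medium, and 46.9, 36.5 and 55.4 in high. BNIP3, a mitophagy receptor, stood at 31.4, 28.5 and 27.5 CPM in control, 30.4, 26.3 and 33.4 in low, 28.4, 29.8 and 30.6 in medium, and 29.1, 28.6 and 33.5 in high. Both had overlapping groups, and BNIP3 had the smallest coefficient of variation of the 29 genes over the 12 libraries, 7.39%. P4HA1, the catalytic subunit of collagen prolyl hydroxylase, stood at 60.3, 64.1 and 58.2 CPM in control, 47.3, 64.2 and 33.3 in low, 39.9, 55.1 and 51.8 in medium, and 51.8, 59.1 and 31.6 in high. All 3 medium libraries of P4HA1 lay below the controls, at a difference of -0.27 ± 0.24 (adjusted p = 0.999, edgeR). BNIP3L, the relative of BNIP3, ranged from 4.75 to 10.5 CPM, and KDM3A, a histone demethylase, from 19.44 to 26.999 CPM. CA9, the tumour carbonic anhydrase, and ADM, adrenomedullin, had 0 counts in each of the 12 libraries. NDRG1 had 0 to 4 and ANKRD37 0 to 3 counts a library, and 76.7% of the exon bases of ANKRD37 are shared with genes on the opposite strand.

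BNIP3 made up 87.5% ± 0.26 (SD, n = 3) of BNIP3 plus BNIP3L per exon length in control and 89.8% ± 1.44 in high. This was the 1 share without overlap among 36 comparisons of paralogue shares (2-sided exact permutation p = 0.1, which is the lower limit for 3 against 3 libraries, adjusted p = 0.686). No share passed, and none could have at this number of libraries. The BNIP3 share is also uncertain, since 16.7% of the exon bases of BNIP3 are shared with PPP2R2D on the opposite strand. PPP2R2D held 5755 counts against 4151 for BNIP3.

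For HIF1A and EGLN1 no difference was detected. HIF1A, the oxygen-regulated subunit of HIF, stood at 64.9, 72.4 and 66.3 CPM in control, 57.8, 72.0 and 53.1 in low, 63.1, 64.4 and 67.9 in medium, and 64.4, 69.4 and 55.2 in high. EGLN1 (PHD2), its main oxygen-sensing hydroxylase, stood at 51.5, 60.8 and 58.8 CPM in control, 57.5, 62.6 and 39.9 in low, 52.1, 55.9 and 65.4 in medium, and 59.2, 55.7 and 51.1 in high. The groups overlapped for both genes, and the 95% intervals of the difference in high were -0.31 to 0.22 for HIF1A and -0.33 to 0.35 for EGLN1 on the log2 scale. EGLN3 (PHD3), the hydroxylase known to be induced by HIF1A, had 0 counts in each of the 12 libraries. The level of HIF1A is uncertain, since antisense genes share 31.9% of its exon bases. HIF1A-AS2, which shares most of them, held 19 counts against 9038 for HIF1A. These counts do not show whether reads on the shared bases were lost.

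Within groups, the levels of some of these genes followed the 16S share of the library, as did those of many other genes. The CPM of HK2 and PGK1 fell in strict order of rising 16S share in all 4 groups, and that of SLC2A1 and PFKM rose in strict order in all 4. Among all genes tested, 5.76% fell and 5.12% rose in this way. The lowest CPM of each group lay in its library with the most 16S rRNA for 10 of the 29 genes in all 4 groups (HK2, GPI, ALDOA, TPI1, PGK1, ENO1, PKM, LDHB, HIF1A and EGLN1), and for 12.8% of all genes. The highest lay there for SLC2A1, PFKM and PFKP, and for 12.1% of all genes. A strict order in at least 3 groups was met downward by 8 of the 29 genes (16.2% of all genes) and upward by 5 (15.2%), namely SLC2A1, PFKM, PFKP, GAPDH and BNIP3. This order was chosen after the values were seen and has no test. The upward counts and the strict order in all 4 groups (2 of the 29 genes in each direction) lay near the shares of all genes.

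**Figure D4:**
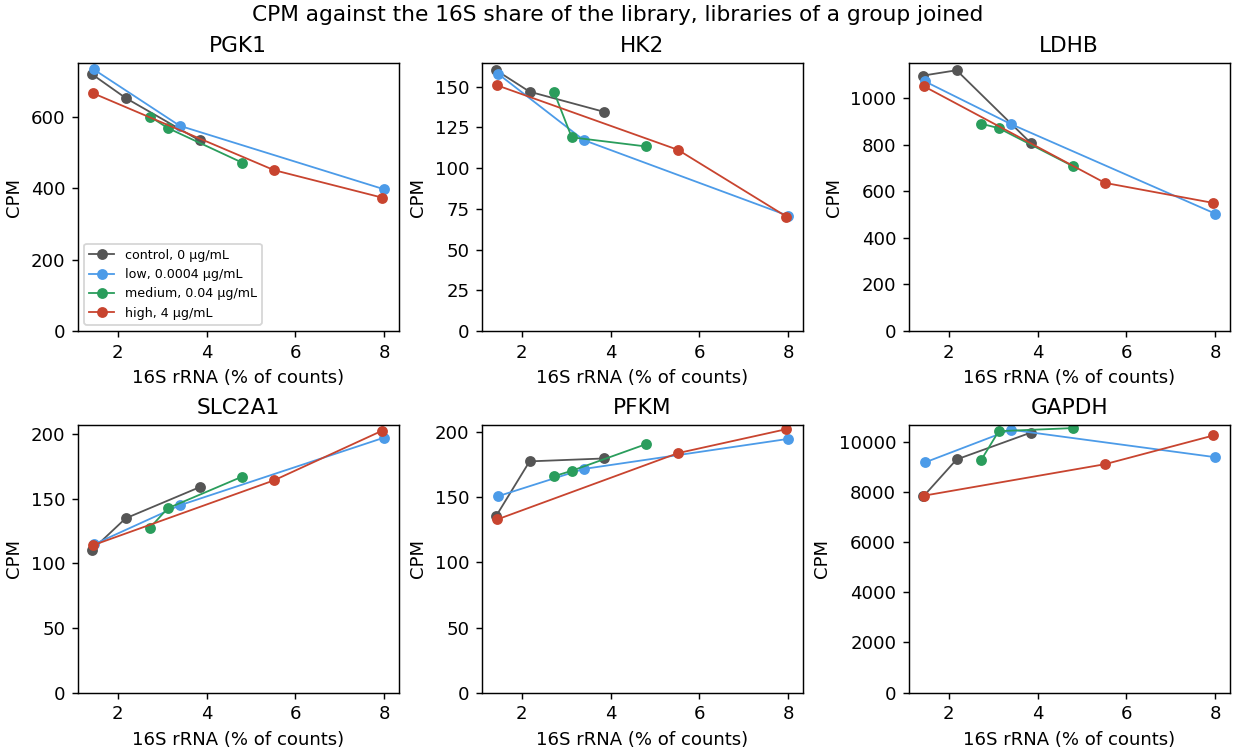
CPM of PGK1, HK2, LDHB, SLC2A1, PFKM and GAPDH against the share of mitochondrial 16S rRNA in the library, with 1 point per library and a line joining the 3 libraries of a group. PGK1, HK2 and LDHB are lowest and SLC2A1 and PFKM highest in the 16S-richest library of every group; GAPDH shows this order in 3 of the 4 groups.

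**Figure D5:**
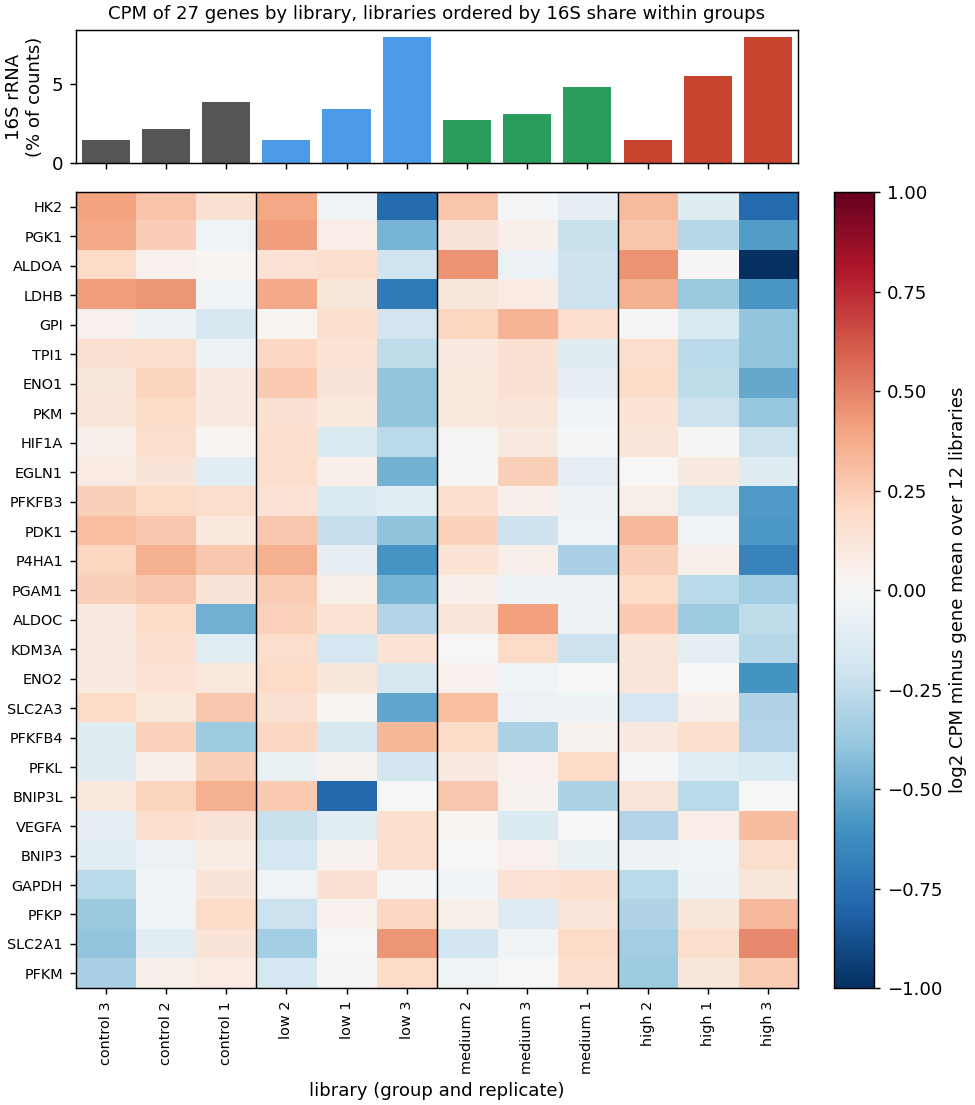
Log2 CPM of 27 tested genes minus the mean of the gene over 12 libraries, with libraries ordered by 16S share within each group and the share drawn as bars on top; LDHA and SLC16A1 are left out for their duplicate loci. Colours are limited to the range -1 to 1; low replicate 3 and high replicate 3 are blue for most enzymes and red for SLC2A1, PFKP and PFKM.

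Within a group, the highest library exceeded the lowest by a median of 1.18 times in control and 1.44 in low over the 29 genes. The median was 1.26 times in medium and 1.52 in high, and over all genes tested the 4 values were 1.267, 1.45, 1.24 and 1.42 times. For LDHA in control it was 6.57 times. Summed over the 17 glycolytic enzymes the level was 18314 ± 1099 CPM (SD, n = 3) in control and 17967 ± 1932 in low. It was 18591 ± 628 CPM in medium and 16555 ± 499 in high. GAPDH weighs heavily in these sums, and the other 35 genes of the 36 summed to 9686 ± 447, 8794 ± 1696, 9030.0 ± 616 and 8007 ± 1557 CPM in the same order. Summed over the 9 hypoxia-responsive genes it was 171 ± 8.49 CPM in control, 154 ± 10.5 in low, 154 ± 12.4 in medium, and 155 ± 5.82 for high. The sums have no test.

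The other genes of these pathways gave 0 calls by edgeR. Of 26 further glycolytic genes, transporters and modifiers, 12 were tested, with 7 above and 5 below control in high; ADPGK, the ADP-dependent glucokinase, differed by -0.23 ± 0.13 from control. PKLR, the liver and red cell pyruvate kinase, passed the filter on low counts through low replicate 3 and high replicates 1 and 3, where it had 1.29, 1.15 and 1.13 CPM, so its estimate depends on the libraries that let it pass and is not given. In low the smallest p values were those of BPGM (0.48 ± 0.23) and SLC2A8 (0.29 ± 0.24), and in medium those of PGM1 (0.13 ± 0.12) and ENO3 (0.14 ± 0.15). All 7 genes of the pentose phosphate pathway were tested, with 1 above and 6 below in high, where PGD (-0.25 ± 0.17) and RPIA (-0.47 ± 0.39) had the smallest p. TALDO1 in low (-0.26 ± 0.27) and TKT in medium (0.11 ± 0.13) led beside RPIA in the other groups. Of 13 genes of the pyruvate dehydrogenase complex, its kinases and phosphatases, the mitochondrial pyruvate carrier and pyruvate carboxylase, 11 were tested and 8 lay below control in each treated group. MPC1, a subunit of the mitochondrial pyruvate carrier, lay above control by 0.21 ± 0.12 in low and 0.29 ± 0.12 in medium, and by 0.19 ± 0.12 in high. DLAT differed by -0.13 ± 0.08 in high and DLD by -0.17 ± 0.10 in low.

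Of 14 partners and regulators of HIF, 10 were tested, with 3 above and 7 below control in high. CUL2 and VHL, both of the ubiquitin ligase that marks HIF1A, differed by 0.15 ± 0.08 and -0.18 ± 0.14 in high, and RBX1 of the same ligase by 0.32 ± 0.14 in low. HIF1AN, the asparaginyl hydroxylase of HIF, differed by -0.24 ± 0.16 in low and CITED2, a feedback inhibitor, by -0.28 ± 0.18 in medium. Of 36 further hypoxia targets, 24 were tested, with 16 above and 8 below in high (median 0.06). NRN1 differed by 0.33 ± 0.11 and KDM4C by -0.42 ± 0.17 in high, GYS1, the muscle glycogen synthase, by 0.28 ± 0.11 in low, and CCNG2 by -0.97 ± 0.45 in medium. The smallest adjusted p over these 5 lists was 0.913 in low and 0.999 in medium, and 0.813 for high.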

How the data were processed

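Polyadenylated RNA of TK6 cells was sequenced in 12 libraries, with HISAT2 2.2.1, fastp 0.23.4, MultiQC 1.27, featureCounts 2.0.6 and the build GRCh38.p14 listed in the submitters' processing notes. Whether strand was used, and how multi-mapping reads were counted, is not given in the sources used here. Per gene, the authors deposited raw read counts, and CPM and the tests were computed from these counts. Entries of duplicate loci (5953 of 50006) were added to their gene, which left 44053 genes.

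After filterByExpr on group, 11866 genes remained. They were fitted after TMM scaling with edgeR 4.0.16 (glmQLFit, glmQLFTest, R 4.3.3), with 12 libraries in 1 model and 8 residual degrees of freedom, and p-values were adjusted over all genes tested (Benjamini-Hochberg, threshold 0.05). Standard errors come from the F statistic. The code was tested on simulated data. Shares of paralogues were compared with exact permutation tests (scipy 1.17.1). Alternatives were other scaling, filters, DESeq2 1.42.0, limma voom (limma 3.58.1), a replicate block, separate duplicate entries, 2-group fits, and each library omitted in turn. Fits without low replicate 3 and high replicate 3, or with the 16S share as covariate, were added after seeing the data.

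Values in every library are given for 19 fixed genes and for the 5 genes with the smallest p in high and the 3 in low, medium and trend. For related lists the 2 genes with the smallest p in each comparison with control are named. The genes and lists were chosen with earlier results of these data known. A planned comparison of protein sequences was not done, and 1 listed B cell marker is not reported here.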

Additional observations from a re-analysis of the deposited data

How the results depend on the processing

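None of the 36 genes was called in low, medium, high or the trend under any alternative, and in the test for any group LDHA alone was, with no filter on low counts. Over all genes, the numbers called in low, medium, high, trend and any group, each 0 by edgeR, were 2, 2, 2, 1 and 11 with no filter on low counts, and 4, 2, 3, 1 and 9 with DESeq2. They were 1 in each of the 5 without low replicate 3 and high replicate 3, 1 in trend and in any group with the 16S share as covariate, and 4 in medium with only the groups compared. Leaving out 1 library at a time gave 0 to 2, 0 to 2, 0 to 2, 0 to 1 and 0 to 3. The cause of these shifts was not tested. With the replicate block the counts were 0 in all 5. Same-numbered libraries had correlations of -0.39 to 0.63 (8 of 18 above 0.1), and 6 of the 12 libraries were closest to one of their own number. Whether the numbers pair the libraries is not settled by these values.

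The median difference of the 29 genes ran from -0.26 to -0.06 in high, -0.19 to -0.01 in low and -0.07 to 0.02 in medium when 1 library was left out. Without a composition factor 4 of the 29 estimates in high turned sign (ALDOC, EGLN1, GAPDH and VEGFA), and the trend split from 11 above and 18 below to 7 and 22. None of the 14 differences named for their small p changed sign under an alternative that could be fitted. With duplicate entries kept apart, the chromosome's own entries of LDHA and SLC16A1 were too low to test. Their duplicate entries, which hold nearly all their counts, were not examined in that setting.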
